A study of Mus musculus with 12 samples.

Results

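A set of 10 genes of the TGF-beta pathway, written below as the 10 members, were followed across 12 arrays of mouse blood cells. They are the ligand gene Tgfb1, the receptor genes Tgfbr1, Tgfbr2 and Tgfbr3, the signal carriers Smad2 and Smad3, the inhibitory Smad7, and the inhibitors Pmepa1, Ski and Skil. The members were chosen by their symbols with the signals of all 12 arrays already known, and Pmepa1 and Tgfbr3 were known to be among the largest differences, so their values are given as a description and not as tests. They are 10 of the 18194 genes that the array annotation gives alone to at least 1 probe set, and 24 of the 34958 such probe sets. All 10 members were among the 10583 genes whose mean log2 value lay at or above the median of all probe sets (6.76), each through its brightest probe set.

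The arrays fall into 4 groups of 3: Stat5 knockouts whose titles carry a plus sign, Stat5 knockouts with a minus sign, controls with a plus sign and controls with a minus sign. Per the labels, the knockouts are mice that lack both Stat5a and Stat5b, neighbouring genes for transcription factors downstream of cytokine receptors, and the arrays were made from blood cells. The treatment protocols read the sign as with or without CMP, but some titles carry the letters CMP on plus and minus arrays alike, so what the sign stands for is not settled and the arrays are called plus and minus arrays. The labels give no strain, age, sex, blood cell type or means of deletion, and do not say whether the arrays of a group came from separate animals, so every p-value measures only the spread between these samples.

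Each group has 1 array in each of 3 naming sets, A, B and C, told apart by the form of the titles, and values of a group are listed below in that order. The treatment protocol of the knockout minus array of set B calls it a control. It was grouped by its title, and its Stat5a signal was 50.1 and its Stat5b signal 32.3. In all knockout arrays Stat5a gave 28.9 to 90.1 and Stat5b 7.28 to 82.8, against 659.7 to 1436 and 1036 to 2177 in control arrays. The knockout plus array of set B stood apart among its group for several members and had the highest ratio of 3' to 5' beta-actin signal of the 12 arrays, 5.78 on the log2 scale. The ratio lay between 4.30 and 5.78 in set B and between 0.25 and 2.14 in the other sets, and was higher in the plus array for 6 of 6 plus and minus pairs matched by naming set and genotype, by 0.24 to 1.63. All 5 general blood cell markers were above the level filter. So were all 6 stem and progenitor, all 7 granulocyte precursor, all 4 measured erythroid and all 5 measured megakaryocyte and platelet markers. Of the measured monocyte and macrophage markers 5 of 6 were, and of the mast cell and basophil markers 4 of 5. For fibroblasts it was 1 of 6 markers and for endothelial cells 2 of 5. For T cells it was 1 of 5 measured markers, for B cells 1 of 4 and for NK cells 0 of 3.

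TGF-beta is secreted in a latent form and, once released, joins the type II receptor TGFBR2 to the type I receptor TGFBR1, a kinase that phosphorylates SMAD2 and SMAD3. These enter the nucleus with SMAD4 and switch target genes, among them their own brakes: SMAD7 blocks the type I receptor, PMEPA1 keeps SMAD2 and SMAD3 from the receptor, and SKI and SKIL (SnoN) repress genes at the SMAD complex. TGFBR3 (betaglycan) is a co-receptor without kinase activity that presents ligand and can also be shed. In blood formation the pathway is known for restraining the growth of stem and progenitor cells.

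Promoters of Tgfbr1 and Tgfbr2, the signalling receptor pair, are shown because both genes had higher signals in all 6 plus arrays than in any minus array. Each runs from 250 bases before to 50 after a start site in RefSeq on GRCm38.p6, in lower case, and capitals mark CAGAC, the 5-letter element bound by SMAD proteins. Tgfbr1 lies on the plus strand, chr4:47352972-47353271, and has a second start, and Tgfbr2 on the minus strand, chr9:116175314-116175613.
Tgfbr1: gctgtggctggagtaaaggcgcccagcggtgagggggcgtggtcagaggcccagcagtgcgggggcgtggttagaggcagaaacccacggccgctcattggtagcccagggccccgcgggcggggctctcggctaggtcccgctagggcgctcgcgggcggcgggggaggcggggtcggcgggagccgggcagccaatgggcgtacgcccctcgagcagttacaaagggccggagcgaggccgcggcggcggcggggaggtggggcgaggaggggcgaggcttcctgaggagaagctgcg
Tgfbr2: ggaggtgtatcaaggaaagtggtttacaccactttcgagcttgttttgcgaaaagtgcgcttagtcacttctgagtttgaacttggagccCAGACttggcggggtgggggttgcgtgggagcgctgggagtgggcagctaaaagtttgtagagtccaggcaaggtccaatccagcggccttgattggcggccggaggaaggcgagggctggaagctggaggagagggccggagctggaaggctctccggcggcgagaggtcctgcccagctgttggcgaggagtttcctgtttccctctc
Of the members, 5 matched a RefSeq promoter by symbol (Tgfb1, Tgfbr1, Tgfbr2, Smad3 and Ski), with 6 promoters in all. Both strands were searched for CAGAC, the SMAD palindrome GTCTAGAC, which does not contain CAGAC on either strand, the STAT palindrome TTCNNNGAA and the AP-1 element TGANTCA. Of the 6 windows, 2 held CAGAC, at positions -160 to -156 of Tgfbr2 and -203 to -199 of the second start of Tgfbr1, counted from the start site. The other 3 motifs had 0 matches in these 6 windows. Of 32851 promoters of the same length, 49.6% held CAGAC, 0.213% GTCTAGAC, 8.30% TTCNNNGAA and 7.81% TGANTCA. Pmepa1, Tgfbr3, Skil, Smad2 and Smad7 are named only.

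The largest differences of the members lay between plus and minus arrays. The inhibitors Pmepa1 and Skil had the largest positive differences and the co-receptor Tgfbr3 the largest negative one among the members, in both genotypes. Signals of all 6 plus arrays lay above those of all 6 minus arrays for 4 members (Tgfbr1, Tgfbr2, Pmepa1 and Skil) and below them for 1 (Tgfbr3), while the other 5 overlapped. Over the 10583 genes tested, 5.73% lay above and 5.22% below in this way, and since the members were chosen with these signals known, nothing is read from the difference.

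In limma's fit over all genes, called means a Benjamini-Hochberg adjusted p under 0.05. Between plus and minus arrays of the knockouts 5 members were called higher and 1 lower, where 9.03% of all genes tested were called higher and 9.72% lower. In the controls 5 members were called higher and 1 lower as well, where 10.6% of all genes were called higher and 11.6% lower. The 3 plus and 3 minus arrays did not overlap for 5 members higher and 1 lower in the knockouts, against 12.2% and 11.4% of all genes, and for 6 higher and 1 lower in the controls, against 12.6% and 12.5%. The median log2 difference of the 10 members was 0.72 in knockouts and 0.84 in controls, beside -0.06 and -0.02 over all genes tested.

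**Figure D1:**
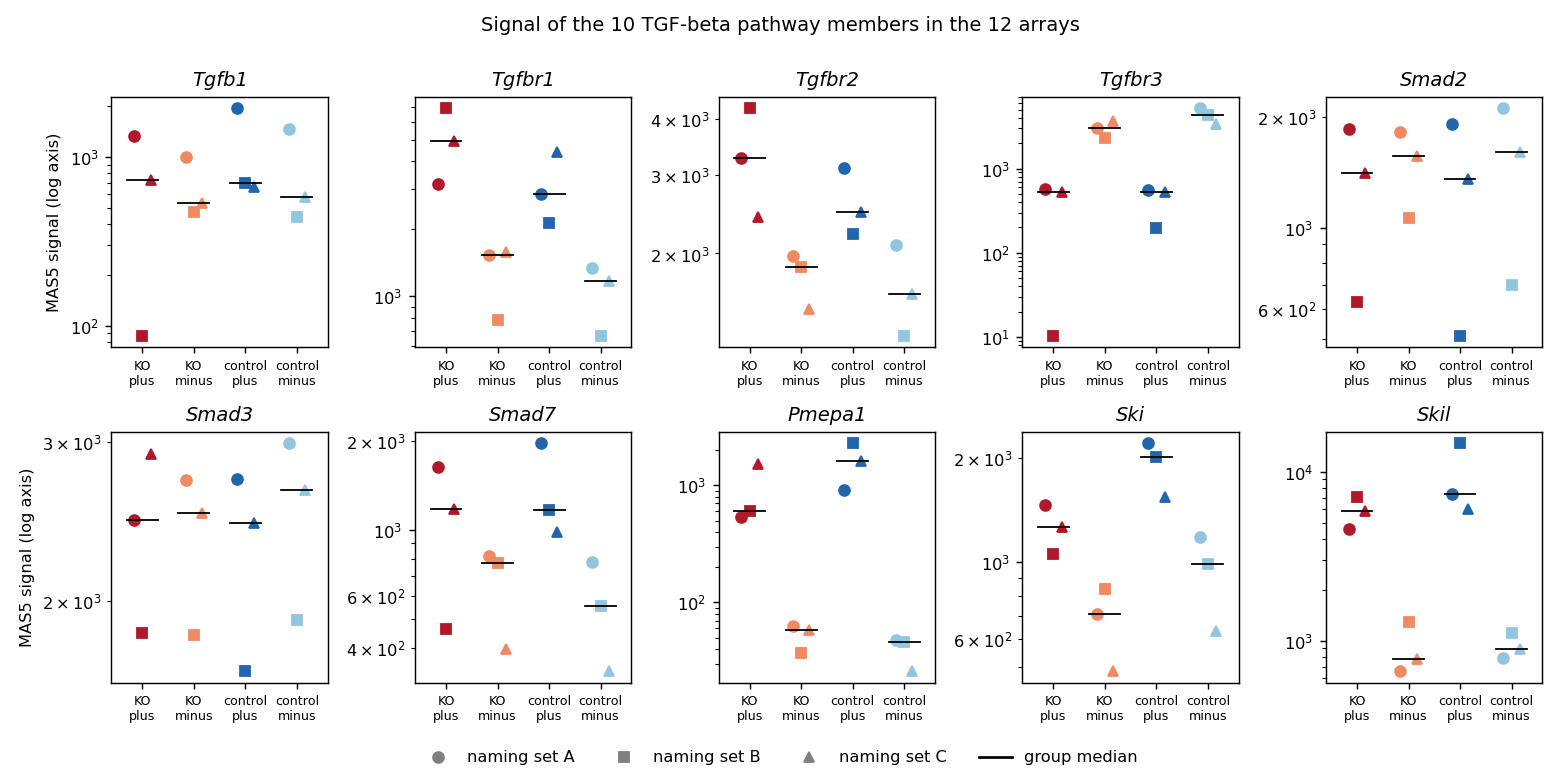
MAS5 signal (log axis, arbitrary units) of the brightest probe set of each of the 10 members in the 12 arrays, by group, with 1 point per array, its shape giving the naming set, and a line at the group median. All 6 plus arrays lie above all 6 minus arrays for Tgfbr1, Tgfbr2, Pmepa1 and Skil and below them for Tgfbr3. For Ski, plus arrays lie above minus arrays only within each genotype. The knockout plus array of set B is lowest for Tgfb1 (87.0) and Tgfbr3 (10.3).

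The ligand gene Tgfb1 (1420653_at) had signals of 1338, 87.0 and 726 in knockout plus arrays and 1002, 474 and 534 in knockout minus arrays. In controls it had 1949.5, 705 and 668 in plus arrays and 1458, 441 and 583 in minus arrays. Set A was the highest set in each group, the groups overlapped in both genotypes, and the knockout plus array of set B lay far below the other 11. The log2 difference, plus over minus, was -0.42 ± 0.44 in knockouts and 0.41 ± 0.44 in controls (SE, n = 3 arrays per group, here and below), neither called. It was 0.36 in knockouts without that array, so for this probe set the negative sign in knockouts came from 1 array. The dimmer probe set gave -0.68 ± 0.34 in knockouts and -0.25 ± 0.34 in controls. Its knockout signals were 235, 78.1 and 236 in plus arrays and 330, 316 and 226 in minus arrays, lower in the plus array of set A as well.

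The type I receptor gene Tgfbr1 (1420895_at) had 3182, 6907 and 4932 in knockout plus arrays against 1521, 786 and 1582 in knockout minus arrays. In controls the signals were 2848, 2131 and 4402 in plus arrays and 1333, 666 and 1166 in minus arrays. The lowest plus array of either genotype was above the highest minus array. The difference was 1.92 ± 0.34 (3.78-fold) in knockouts and 1.53 ± 0.34 (2.89-fold) in controls. In knockouts it was 1.05 and 1.62 in sets A and C and 3.09 in set B, and it was 1.37 without the knockout plus array of set B. The call in controls was lost without the control minus array of set B (1.34). The 2 other probe sets of Tgfbr1 were below the level filter, at signals of 1.17 to 78.9.

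The type II receptor gene Tgfbr2 (1426397_at), which binds the ligand first, gave 3268, 4234 and 2411 in knockout plus arrays and 1969.6, 1867 and 1504 in knockout minus arrays. Controls gave 3112, 2207 and 2479.9 in plus arrays and 2091, 1307 and 1622 in minus arrays. Plus and minus arrays were apart, but by less than for Tgfbr1. The difference was 0.85 ± 0.22 in knockouts, called, and 0.64 ± 0.22 in controls, not called, and it lay between 0.57 and 1.17 in all 6 pairs. The call in knockouts was lost without the knockout minus array of set A (0.82), B (0.92) or C (0.82), and controls were called without the knockout plus array of set B (0.64). Both other probe sets were below the filter, at signals of 2.92 to 51.7.

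The co-receptor gene Tgfbr3 (1433795_at) was lower in every plus array. Its signals were 571, 10.3 and 526 in knockout plus arrays against 3004, 2318 and 3641 in knockout minus arrays, and 549.6, 198 and 521 in control plus arrays against 5232, 4364 and 3362 in control minus arrays. Sets A and C of the plus arrays lay within a narrow span in both genotypes, and set B was lowest in each. The log2 difference was -3.62 ± 0.60 in knockouts, 12.3-fold lower, and -3.35 ± 0.60 in controls, 10.2-fold lower. Without the knockout plus array of set B it was -2.55 in knockouts. With beta-actin ratio added as covariate it was -2.90 in knockouts and -2.69 in controls, and neither was called. The covariate also ended the calls of Tgfbr1 in knockouts (1.82) and controls (1.45) and of Tgfbr2 (0.47) and Ski (1.10) in knockouts. The other probe set of Tgfbr3 was below the filter, at 4.26 to 58.1.

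**Figure D2:**
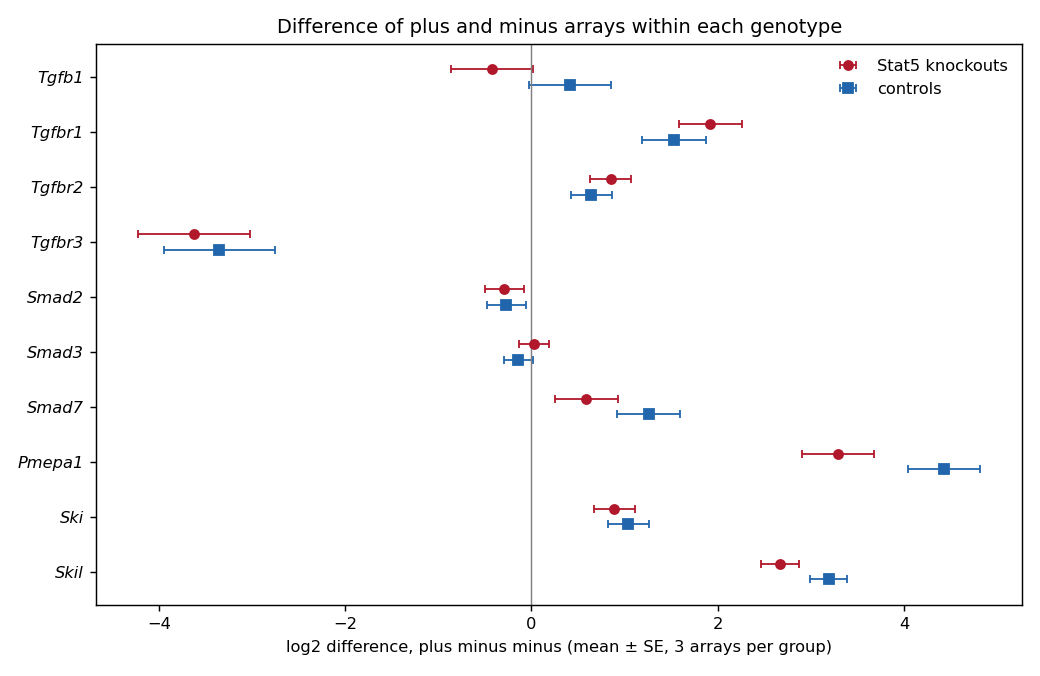
Log2 difference, plus over minus arrays, of the 10 members in Stat5 knockouts (circles) and controls (squares), as mean and SE of the fit with 3 arrays per group. Pmepa1 (3.29 in knockouts, 4.43 in controls), Skil (2.67 and 3.19) and Tgfbr3 (-3.62 and -3.35) lie farthest from 0, and Smad2 and Smad3 lie near it.

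For the signal carriers, plus and minus arrays overlapped in both genotypes. Smad3 (1454960_at) ranged from 1669.5 to 2910.3 in plus arrays and from 1834 to 2990.1 in minus arrays, and its difference was 0.03 ± 0.16 in knockouts and -0.14 ± 0.16 in controls. Smad2 (1420634_a_at) ranged from 508 to 1913 in plus arrays and from 697 to 2110.2 in minus arrays, with differences of -0.29 ± 0.21 and -0.27 ± 0.21. Set B was the lowest set of Smad2 and Smad3 in every group. Neither gene was called in either genotype.

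The inhibitory Smad7 (1423389_at), a target of the pathway that blocks its receptor, gave 1624, 464 and 1179 in knockout plus arrays and 815, 773 and 395 in knockout minus arrays. It gave 1958, 1163 and 983 in control plus arrays and 782, 554 and 333 in control minus arrays. Control plus arrays were all above control minus arrays, while in knockouts set B turned the order (-0.70, against 0.97 and 1.5 in sets A and C). The difference was 0.59 ± 0.34 in knockouts, not called, and 1.26 ± 0.34 in controls, called. Without the knockout plus array of set B it was 1.13 in knockouts, called, and without the knockout minus array of conflicting labels 0.92, not called. In controls the call was lost without the plus array of set A (1.25), B (1.24) or C (1.30) or the minus array of set A (1.26) or C (1.08). The second probe set of Smad7 gave 0.79 ± 0.26 in knockouts and 1.09 ± 0.26 in controls.

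Pmepa1 (1422706_at), whose membrane protein keeps SMAD2 and SMAD3 from the receptor, had the largest positive difference of the members with the constant of 32. Its signals were 534, 598 and 1508 in knockout plus arrays against 62.7, 37.1 and 58.7 in knockout minus arrays. They were 906, 2276 and 1626 in control plus arrays against 47.4, 45.9 and 25.8 in control minus arrays. The minus signals lay below the array's own median in 6 of 6 minus arrays, whose medians were 59.7 to 88.1, so that the size of the difference depends on the constant of 32 added before the logarithm. The log2 difference was 3.29 ± 0.39 in knockouts and 4.43 ± 0.39 in controls, at least 2.58 in each pair. With a constant of 1 it was 3.90 and 5.25, and with a constant of 100 it was 2.55 and 3.52, where Skil was at 2.58 and 3.1, so the order of these inhibitors turned in knockouts. A second probe set above the filter gave 1.62 ± 0.54 in knockouts and 3.78 ± 0.54 in controls.

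Ski (1429192_at), a repressor at the SMAD complex, gave 1459, 1059 and 1267 in knockout plus arrays and 709, 838 and 485 in knockout minus arrays, against 2202, 2013 and 1543 in control plus arrays and 1183, 986 and 634 in control minus arrays. Plus arrays were above minus arrays within each genotype, but the lowest knockout plus array lay below the highest control minus array. The difference was 0.89 ± 0.22 in knockouts, with 0.33 in set B, and 1.04 ± 0.22 in controls. In knockouts the call was lost without the minus array of set A or C (0.80 each) or the plus array of set C (0.68). The dimmer probe set gave 0.22 ± 0.30 in knockouts and 0.60 ± 0.30 in controls.

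Skil (1452214_at), the close relative of Ski that TGF-beta itself induces, gave 4557, 7119 and 5884 in knockout plus arrays and 659, 1294 and 782 in knockout minus arrays. In controls it gave 7409, 14707 and 5993 in plus arrays and 787, 1118 and 894 in minus arrays. The lowest plus array was above the highest minus array by a wide margin in both genotypes. The difference was 2.67 ± 0.20 (6.38-fold) in knockouts and 3.19 ± 0.20 (9.12-fold) in controls, between 2.43 and 3.68 in each of the 6 pairs. Skil was called in both genotypes under all 28 alternatives, as was Pmepa1 under the 27 that kept it above the filter. The dimmer probe set of Skil gave 0.69 ± 0.36 in knockouts and 1.05 ± 0.36 in controls.

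**Figure D3:**
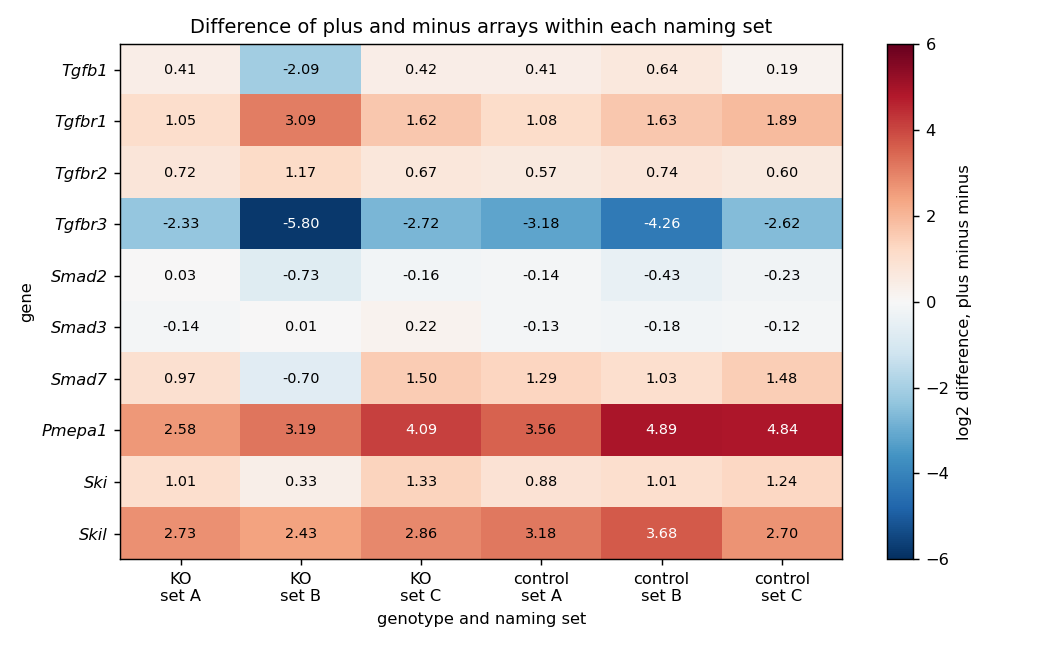
Log2 difference, plus over minus array, of each member within each naming set, for Stat5 knockouts (3 left columns) and controls (3 right columns), with 1 pair of arrays per cell. Signs are the same in all 6 pairs for Tgfbr1, Tgfbr2, Tgfbr3, Pmepa1, Ski and Skil, and set B of the knockouts departs for Tgfb1 (-2.09) and Smad7 (-0.70).

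Summed signals of some lists of blood lineage markers also differed between plus and minus arrays. The summed signal of the 4 measured erythroid markers was 586 to 3210 in plus arrays and 4300 to 28500 in minus arrays, and 3 of 4 were called in each genotype. The 6 stem and progenitor markers summed to 16100 to 34100 in plus arrays and 37100 to 42400 in minus arrays, with no overlap. However, 1 of the 6 was called in each genotype, close to the shares of all genes given above. Cd34, Gata2, Myb and Meis1 were lower in the plus array of every pair, and Flt3 in most pairs. Kit, the receptor of stem cell factor, went the other way and was higher in the plus array in 5 of 6 pairs. The 5 measured mast cell and basophil markers summed to 1050 to 6470 in plus arrays and 6290 to 8430 in minus arrays, which overlapped, and of the 4 above the filter 2 were called in knockouts and 1 in controls. Plus and minus sums overlapped for the other 9 lists as well. The part of these cell types and of the beta-actin ratio in the members' differences was not tested, and in such bulk samples fewer cells of a type and less RNA per cell cannot be told apart.

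The rule on likeness named, for the members with the largest positive and negative difference, the 3 tested genes with the closest pattern over the 12 arrays, by the root mean square difference of log2 values after each gene's own mean was taken off. For Pmepa1, whose own values had an SD of 2.10, these were Csf2rb2 (0.38), the mouse beta chain of the IL-3 receptor, Gpt2 (0.62), a mitochondrial alanine transaminase, and Srxn1 (0.66), which repairs oxidised peroxiredoxins. For Tgfbr3, with an SD of 2.11, they were Jun (0.43), an immediate early transcription factor, Apoe (0.62), an apolipoprotein, and Aqp1 (0.79), a water channel of red cells. Csf2rb2 differed by 3.74 ± 0.33 in knockouts and 4.26 ± 0.33 in controls, and Jun by -4.23 ± 0.66 and -3.88 ± 0.66.

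Between genotypes the log2 differences of the members lay between -1.02 and 0.67. Within minus arrays, knockout against control, 0 of 10 members were called by limma, 0 had an unadjusted p under 0.05 and 0 were apart. Over all genes, 0.0189% were called in either direction, 250 of 10583 had such a p and 4.32% were apart. The member differences ran from -0.53 ± 0.60 for Tgfbr3 to 0.28 ± 0.34 for Tgfbr1, with a median of 0.01, beside -0.01 over all genes. Ski was lower in knockouts in all 3 sets, by -0.71, -0.23 and -0.37, and its groups overlapped (709, 838 and 485 in knockout minus arrays, against 1183, 986 and 634 in control minus arrays).

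Within plus arrays, 0 of 10 members were called by limma and 4 had an unadjusted p under 0.05 (Tgfb1, Pmepa1, Ski and Skil), where 0.0189% of all genes were called and 1038 of 10583 had such a p. These 4 members had lower values in knockouts, Tgfb1 by -1.02 ± 0.44, Pmepa1 by -0.90 ± 0.39, and Ski and Skil by -0.59 ± 0.22 and -0.59 ± 0.20. Ski was the 1 member whose groups did not overlap (1459, 1059 and 1267 in knockout plus arrays, against 2202, 2013 and 1543 in control plus arrays), where 3.04% of all genes were lower and 2.62% higher in this way. The median of the members was -0.51, beside -0.04 over all genes.

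Several of these genotype differences were largest in set B. For Tgfb1 it gave -2.63, against -0.53 and 0.12 in sets A and C, for Tgfbr1 1.68 against 0.16 in each, and for Tgfbr3 -2.45 against 0.05 and 0.01. Without the knockout plus array of set B, Tgfb1 was at -0.24, Tgfbr1 at 0.12, Tgfbr3 at 0.27, Smad7 at 0.11, Pmepa1 at -0.64 and Ski at -0.38. Pmepa1, Ski and Skil were lower in knockouts in 3 of 3 sets, Pmepa1 by -0.73, -1.87 and -0.11, Ski by -0.58, -0.91 and -0.28, and Skil by -0.70, -1.04 and -0.03. The second probe set of Pmepa1 gave -1.78 ± 0.54.

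**Figure D4:**
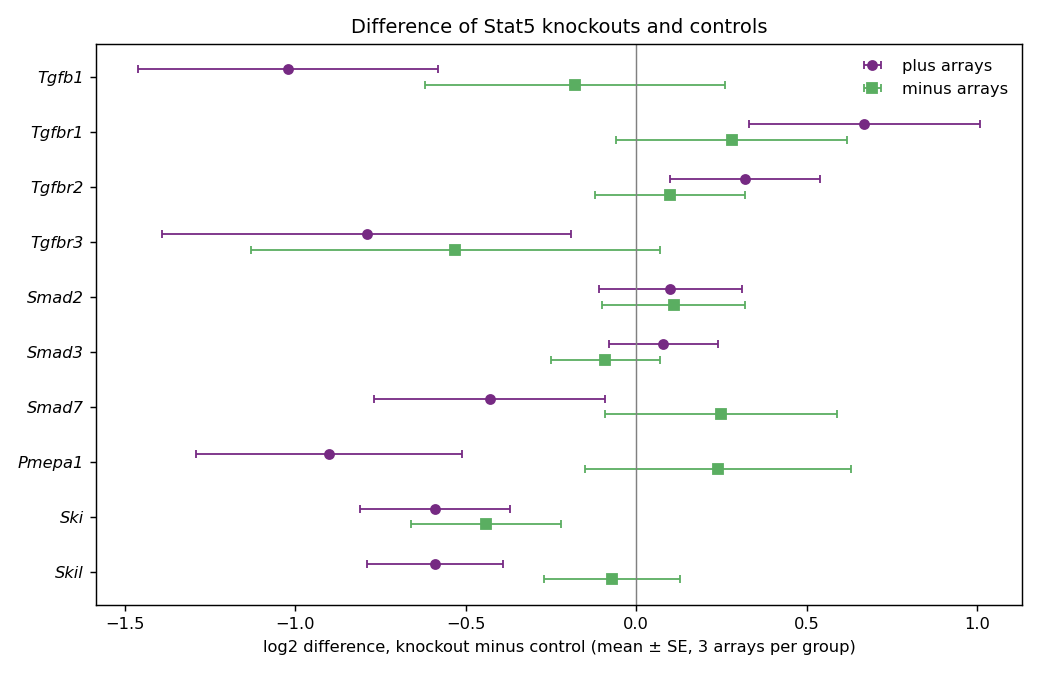
Log2 difference, knockout over control, of the 10 members within plus arrays (circles) and within minus arrays (squares), as mean and SE of the fit with 3 arrays per group. In plus arrays Tgfb1 (-1.02), Pmepa1 (-0.90), Tgfbr3 (-0.79), Ski (-0.59), Skil (-0.59) and Smad7 (-0.43) lie below 0. No member passed the threshold in either comparison.

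The test of whether the plus against minus difference itself depended on genotype called 0 of 10 members by limma, with 0 at an unadjusted p under 0.05, where 0% of all genes were called and 223 of 10583 had such a p. Pmepa1 had the largest value, -1.15 ± 0.55, with -0.98, -1.70 and -0.76 in sets A, B and C, that is a smaller difference in knockouts in each set. Skil was at -0.51 ± 0.29 and Smad7 at -0.67 ± 0.49, both with set B at the low end (-1.25 and -1.73). For Tgfbr1, Tgfbr2 and Tgfbr3 the values were 0.39 ± 0.48, 0.22 ± 0.31 and -0.27 ± 0.85.

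A list of 61 other genes of the TGF-beta, activin and BMP pathways was examined beside the members, of which 59 had a probe set and 42 were above the level filter. Like the members, the list was chosen with earlier results of these data known. Its calls and median are therefore a description and no independent support. In knockouts 7 rose in plus arrays and 3 fell, where 9.03% of all genes were called higher and 9.72% lower. In controls 9 rose and 1 fell, where 10.6% of all genes were called higher and 11.6% lower. The 3 and 1 of 42 that fell are shares no larger than those of all genes. The list's median difference was 0.24 in knockouts and 0.29 in controls, beside -0.06 and -0.02 over all genes. The genes that rose in both include the BMP type II receptor Bmpr2 (1.03 ± 0.16, adjusted p = 0.00171 in knockouts, and 1.0 ± 0.16, adjusted p = 0.00178 in controls), the adaptor Dab2 (1.91 ± 0.39 and 2.67 ± 0.39), the integrin chain Itgav, which takes part in freeing latent TGF-beta (2.09 ± 0.33 and 1.30 ± 0.33), and Furin, the protease that cuts the precursor (0.79 ± 0.21 and 0.78 ± 0.21). The type I receptor Acvr1 rose in both as well (0.93 ± 0.30 and 1.35 ± 0.30), and the activin receptor Acvr2a rose in knockouts (0.92 ± 0.22) and was at 0.53 ± 0.22 in controls, not passing. Endoglin (Eng), a co-receptor of the same family as Tgfbr3, fell in both (-1.09 ± 0.31 and -1.17 ± 0.31). In knockouts the SMAD co-repressor Tgif2 (-0.94 ± 0.23) and the decoy receptor Bambi (-1.31 ± 0.42, adjusted p = 0.0476) also fell. In controls they were at -0.35 ± 0.23 and -0.79 ± 0.42, not passing.

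The calls of this list moved when single arrays were left out. In controls, where 10 genes were called, 5 were called without the minus array of set A (4 of the 10 and 1 other), 4 without that of set B or of set C, 5 without the plus array of set B or of set C, and 6 without the knockout plus array of set A or the knockout minus array of set C. In knockouts, where 10 were called, 3 were called without the minus array of set B or of set C and 6 without the plus array of set B or of set C. Dab2 in controls stayed called in the 26 alternatives that kept it above the filter, Bmpr2 was called in 25 of 28 in knockouts and 26 of 28 in controls, Eng in 13 and 15 of 28, and Bambi in 9 of 27. The brightest probe set was chosen anew whenever arrays were left out, and Eng was then at -0.28 in controls without the knockout plus or minus array of set A or the knockout minus array of set C, at -0.4 without the control minus array of set A and at -0.37 without that of set C. In knockouts it was at -0.71 without the plus array of set B and at -0.68 without the control minus array of set A or C, none of these called. With the mean of all probe sets of a gene, Bmpr2 was at 0.52 in knockouts and 0.46 in controls, Itgav at 0.55 and 0.62, Acvr2a at 0.41 in knockouts and Eng at -0.73 in controls, and of these values Itgav in controls was called.

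A second list held 38 genes described as SMAD targets in other cells, of which 36 had a probe set and 25 were above the filter. It too was chosen with earlier results of these data known, so its calls and median are a description. In knockouts 7 rose in plus arrays and 2 fell, and in controls 8 rose and 2 fell, beside 9.03% higher and 9.72% lower over all genes in knockouts and 10.6% and 11.6% in controls. The 2 of 25 that fell are a share close to that of all genes. The median difference of the list was 0.21 in knockouts and 0.42 in controls, beside -0.06 and -0.02 over all genes. The cell cycle inhibitor Cdkn1a gave 7269, 4168 and 6717 in knockout plus arrays against 1631, 1851 and 654 in knockout minus arrays, and rose by 2.20 ± 0.33 (adjusted p = 0.00129). In controls it gave 8281, 10851 and 6566 in plus arrays against 937, 719 and 871 in minus arrays, and rose by 3.28 ± 0.33 (adjusted p = 9.98e-05). The transcription factor Bhlhe40 rose by 2.85 ± 0.39 in knockouts and 3.62 ± 0.39 in controls, the pro-apoptotic Bcl2l11 by 1.86 ± 0.40 and 2.24 ± 0.40, and the growth factor Vegfa by 1.65 ± 0.26 and 1.24 ± 0.26. The repressor Hes1 rose by 1.27 ± 0.33 and 1.62 ± 0.33, and Gadd45b, a stress gene, by 2.0 ± 0.44 and 2.06 ± 0.44. With the mean of all probe sets, Gadd45b was at 1.15 in knockouts and Vegfa at 0.42 in controls, neither called, and Vegfa at 0.96 in knockouts, called.

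Of the target list, Myc, which TGF-beta represses in many cells, fell by 1.74 ± 0.25 on the log2 scale in knockouts (adjusted p = 0.00113) and by 1.43 ± 0.25 in controls (adjusted p = 0.00272). Gadd45a, a stress gene, fell in knockouts (-1.83 ± 0.50) and was at -1.40 ± 0.50 in controls, not passing. In knockouts it was at -0.70, -3.82 and -0.98 in sets A, B and C, and at -0.92, still called, without the plus array of set B. It was called in 21 of 28 alternatives, and the call was lost without the knockout minus array of set B or of set C. Ifngr1, a chain of the interferon-gamma receptor, was at -0.74 ± 0.25 in knockouts, not passing, and fell in controls (-1.36 ± 0.25). Cdkn1a, Bhlhe40 and Myc were called in both genotypes in each of the 27 or 28 alternatives run on them. Many of these genes also answer to signals other than TGF-beta, and their source was not tested. Without naming set C, 3 genes of the list were called in knockouts and 6 in controls.

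**Figure D5:**
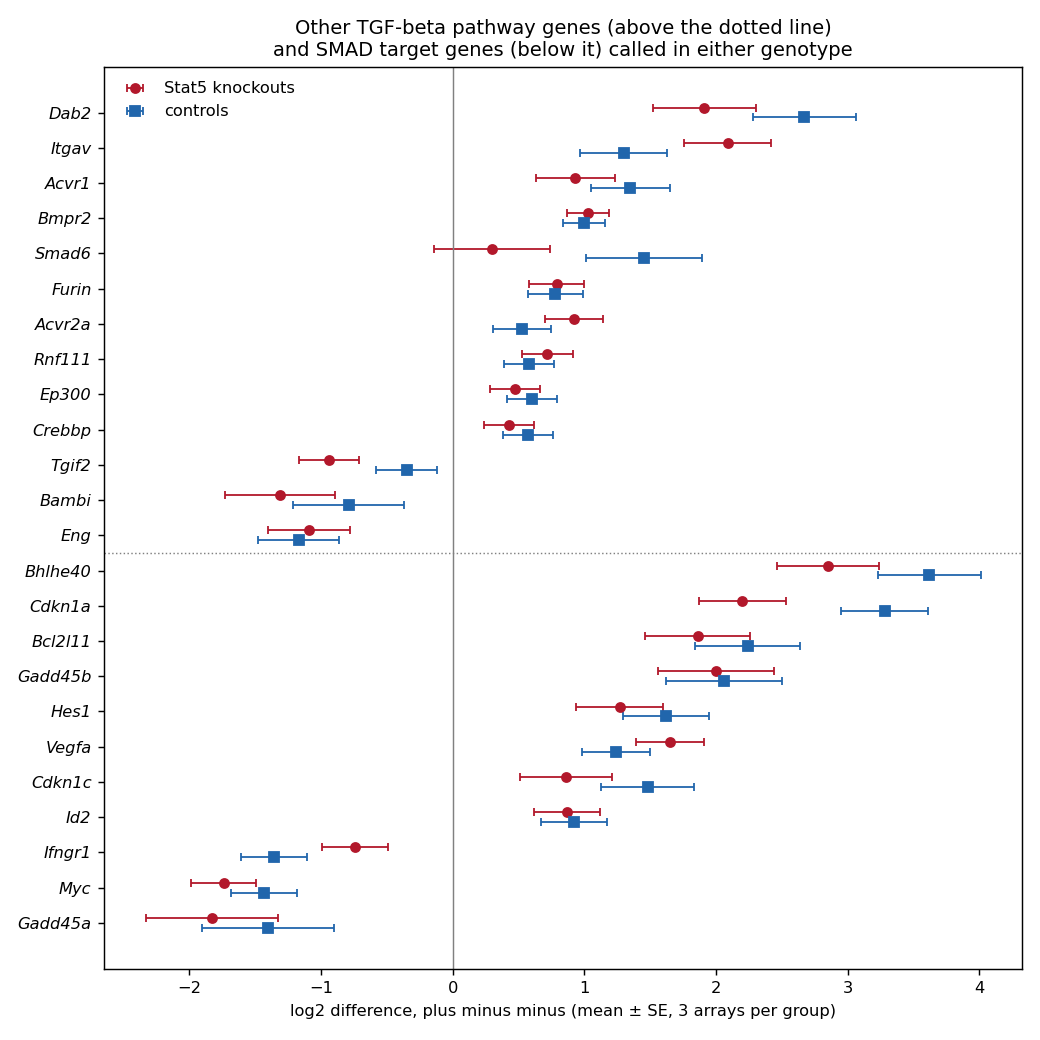
Log2 difference, plus over minus arrays, of the genes called in either genotype from the list of other pathway genes (above the dotted line) and of SMAD targets (below it), in Stat5 knockouts (circles) and controls (squares), as mean and SE with 3 arrays per group. Bhlhe40 and Cdkn1a lie highest (2.85 and 2.20 in knockouts, 3.62 and 3.28 in controls). Eng, Tgif2, Bambi, Myc, Ifngr1 and Gadd45a lie below 0 in both genotypes.

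Neither list had a gene called between genotypes. In minus arrays limma called 0 of 42 pathway genes and 0 of 25 targets, with 2 and 2 at an unadjusted p under 0.05. Over all genes, 0.0189% were called and 250 of 10583 had such a p. The smallest p belonged to Tab1 (-0.69 ± 0.22) and Acvr1 (0.70 ± 0.30) and to Vegfa (-0.86 ± 0.26) and Col1a2 (-0.66 ± 0.27), none passing. In plus arrays 0 and 0 were called, with 4 and 3 at an unadjusted p under 0.05. Over all genes, 0.0189% were called here and 1038 of 10583 had such a p. Acvr2b (-1.28 ± 0.44), Tgif1 (0.56 ± 0.23), Bhlhe40 (-1.02 ± 0.39) and Cdkn1c (-0.84 ± 0.35) had the smallest p, none passing. The test of the dependence on genotype called 0 and 0, with 3 and 1 at an unadjusted p under 0.05. Over all genes, 0% were called and 223 of 10583 had such a p. Ldlrad4 (-1.30 ± 0.53), Tab1 (0.70 ± 0.31), Cdkn1a (-1.08 ± 0.46) and Id1 (-0.80 ± 0.43) had the smallest p, none passing.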

How the data were processed

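The authors deposited 1 table of linear intensity signals per probe set for 12 one-colour Affymetrix arrays, made with MAS5 per the submitters' processing notes. Version, scaling target and detection calls are not given in the sources used here. Trimmed by 2% at both ends, each array had a mean of 500, and no value was below 0.0442. Arrays have no read depth; their number sets the precision.

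The supplied annotation gave 34958 of 45101 probe sets 1 symbol, 932 several, and did not list 9211. Signals were taken as log2(signal + 32) by the brightest probe set of a gene, and genes averaging under 6.76 (the median over probe sets) were dropped. One fit over all 12 arrays (limma 3.58.1, R 4.3.3, eBayes with a variance trend) held the 4 groups and the naming set as a block, with 6 residual degrees of freedom. Tests were two-sided in 5 contrasts, with Benjamini-Hochberg adjustment over 10583 genes. Deviations from group means correlated at 0.41 to 0.77 for the 18 within-set pairs, against -0.64 to 0.28 for 36 pairs that differ in set and group. The chain was tested on simulated data.

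The members, lists and naming rules were chosen with earlier results of these data known. Named were all members, up to 5 called list genes per direction with the smallest p (otherwise 2), and the likest genes of the 2 members with the largest differences. Some genes of the lists were not analysed here.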

Additional observations from a re-analysis of the deposited data

How the results depend on the processing

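The processing was varied in 28 ways, in scaling, constant, level filter, probe set choice, block, weights, covariate and arrays. Of 1385 member differences, 1348 moved by less than 1 SD between replicates, 37 moved further and 0 called differences changed sign. This SD was taken within groups and includes the differences between naming sets that the fit removes as a block, so it is a wide measure. Of 1091 values of named list genes, 123 lost their call and 0 changed sign. Of 556 counts, 494 stayed within 1.5 times.

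Without the naming set as a replicate block, 3 members were called in controls, 1 pathway gene in knockouts and 3 in controls, 5 SMAD targets in knockouts and 4 in controls, and 298 of all genes in knockouts and 470 in controls. With array weights these were 21 and 20 pathway genes, 15 and 17 targets, and 4008 and 4151 of all genes in knockouts and controls. With beta-actin ratio added as covariate, 2 members were called in knockouts, 3 pathway genes in each genotype, and 650 and 1519 of all genes. In a fit of only the arrays compared, 3 pathway genes, 4 targets and 662 of all genes were called in knockouts. With the array of conflicting labels as a control, the counts in knockouts were 3 pathway genes and 972 of all genes. The stricter level filter left 6 targets called in controls, and with the mean of all probe sets 6 pathway genes were called in knockouts, 4 of them among the 10. Between genotypes, 2 genes of all were called in minus arrays and 2 in plus arrays; both counts were 0 with the stricter filter and with the conflicting array as a control, and in plus arrays 0 with only the arrays compared, 4 with a constant of 100 and 13 with array weights. The cause of these changes was not tested.

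Leaving out 1 array or 1 naming set gave 4 to 7 members in knockouts and 3 to 7 in controls, 1 to 12 and 1 to 15 pathway genes, 3 to 10 and 6 to 14 targets, and 342 to 2616 and 575 to 3417 of all genes. In plus arrays between genotypes it gave 2 to 4 of all genes. The lowest counts came without set C, with 3 members called in controls, and set A gave 3 and 4 pathway genes in knockouts and controls. With arrays centred on their medians, the median of all genes moved to -0.13 in knockouts and -0.22 in controls, and 720 genes were called higher and 1198 lower in knockouts and 728 and 1892 in controls, against 956 and 1029, and 1119 and 1225. The members then called were 4 higher and 1 lower in knockouts and 5 and 1 in controls. Dim signals limit Pmepa1 in minus arrays, Bhlhe40 in some minus arrays and Tgfbr3 in the knockout plus array of set B.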

Other observations

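Of the other pathway genes, 17 had a mean below the level filter, among them the ligand genes Tgfb2, with signals of 24.2 to 76.4 in plus arrays and 13.8 to 44.7 in minus arrays, and Tgfb3, with 1.71 to 26.9 and 4.31 to 34.5. Bmp2 gave 26.1 to 81.0 in plus arrays and 0.782 to 17.2 in minus arrays, so plus and minus arrays did not overlap. Among the 10583 genes above the filter, 5.73% lay higher in plus arrays in this way. Of the SMAD targets 11 were below the filter, among them Ccn2 (1.82 to 21.8 in plus arrays and 4.69 to 26.8 in minus arrays), Cdkn2b (6.31 to 50.4 and 4.76 to 22.8) and Itgae (28.8 to 248 and 8.16 to 60.8). These genes were named after their values were seen, and none was tested.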
